A study of Mus musculus with 47 samples.

Results

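The growth hormone to Igf1 axis was followed through 7 genes: the receptor genes Ghr and Prlr, the transcription factor genes Stat5a and Stat5b, the feedback inhibitor Socs2, and the targets Igf1 and Igfbp3. They were chosen by name, and for each gene the brightest probeset whose platform symbol matched was used. Of the 7 genes, 6 were measured in the table of 9815 transcripts, which holds 6889 genes with 1 symbol. No probeset used here was paired with Prlr, which was not analysed here. Socs2 had 2 probesets and the other measured members had 1 each.

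RNA from the livers of 47 mice was hybridised to Affymetrix Mouse Gene 1.0 ST arrays, 1 mouse per array, and is given as log2 values after robust multi-array averaging (RMA), so that a difference of 1 is a 2-fold difference. The mice, all SKH:QS females of 1 in-bred colony, carry no pigment or fur and have a working immune system. They joined at an age of 8 weeks and were treated weekly, 30 times within 36 weeks. The groups were Organic+UVR and Organic-UVR (a sunscreen with the organic filters OCM, B-MDM, 4-MBC and octocrylene), TiO2+UVR and TiO2-UVR (TiO2 nanoparticles together with the organic filters OCM and B-MDM), ZnO+UVR and ZnO-UVR (ZnO nanoparticles), Control+UVR and Control-UVR (no sunscreen), with UVR at 29 kJ/m2 per treatment in the +UVR groups and none in the others. There were 6 mice per group, and 5 in ZnO+UVR. The TiO2 groups hold nanoparticles and organic filters at the same time, so no comparison separates them. The study's methods describe 1 cage per treatment group in this experiment, and the labels individual housing. With 1 cage per group, as the methods have it, cage and treatment cannot be told apart.

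In liver, growth hormone from the pituitary binds its receptor, which activates the kinase JAK2 and through it the STAT5 proteins. STAT5 enters the nucleus and drives Igf1, whose product is secreted and carried in blood largely bound to IGFBP3, and also drives Socs2, which dampens the receptor's signal. In mouse liver STAT5B is the main STAT5 protein and carries much of the sex difference in liver gene expression. Prolactin signals to STAT5 through PRLR. The arrays measure transcript levels of these genes and not the hormone or STAT5 phosphorylation.

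Stat5a and Stat5b are neighbouring paralogs on chromosome 11, read in opposite directions, and their promoters are shown because Stat5b was the member that changed while Stat5a was measured beside it. The windows run from 250 bases before to 50 after a transcript start in RefSeq (build GRCm38.p6), and of the windows listed for each gene those with the longest common run are printed. Capitals mark that run of 16 bases, which starts 32 bases before the start in Stat5a and 23 bases before it in Stat5b.
Stat5a, chr11:100860234-100860533, plus strand: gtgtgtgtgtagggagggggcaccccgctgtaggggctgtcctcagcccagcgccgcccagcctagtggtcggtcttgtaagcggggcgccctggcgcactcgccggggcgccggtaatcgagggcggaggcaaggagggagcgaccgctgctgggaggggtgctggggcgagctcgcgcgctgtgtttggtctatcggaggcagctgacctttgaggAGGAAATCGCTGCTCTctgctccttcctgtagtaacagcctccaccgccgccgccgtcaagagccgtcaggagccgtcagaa
Stat5b, chr11:100822521-100822820, minus strand: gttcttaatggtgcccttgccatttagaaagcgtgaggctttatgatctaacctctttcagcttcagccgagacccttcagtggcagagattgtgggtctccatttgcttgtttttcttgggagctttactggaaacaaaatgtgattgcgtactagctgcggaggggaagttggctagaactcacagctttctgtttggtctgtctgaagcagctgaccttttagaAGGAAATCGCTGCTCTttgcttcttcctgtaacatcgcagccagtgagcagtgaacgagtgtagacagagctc
Around the run, a local alignment of 104 columns had 83 identical bases, or 79.8%. Whether probes of the array read both transcripts was not checked.

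The promoter table held 11 windows for the 6 member genes Ghr, Prlr, Stat5a, Stat5b, Igf1 and Igfbp3. Each was searched on both strands for a STAT5 element (TTCNNNGAA), an E-box (CACGTG) and a D-box (TTATGTAA), the E-box and D-box being chosen after a likeness of Stat5b to clock genes had been seen. Of 32851 promoters of this length, 8.3%, 7.15% and 0.938% held these letters, in that order. Both Stat5b windows held none of the motifs, and neither did the windows of Stat5a, Ghr, Igf1 and Igfbp3. A window of Prlr held 1 STAT5 element and another held 1 D-box.

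Stat5b was the only measured member that passed the test in any comparison. Its level was lower in TiO2+UVR, Organic+UVR and Organic-UVR livers than in Control-UVR livers, and also lower in TiO2+UVR than in TiO2-UVR and Control+UVR livers. Ghr, Stat5a, Socs2, Igf1 and Igfbp3 passed in 0 of the 18 comparisons and did not pass in the test for any difference among the 8 groups. At an unadjusted p under 0.05, before any correction, Igfbp3 had 5 of the 18 comparisons, Ghr 3, Stat5a 2, Socs2 2 and Igf1 0, against 8 for Stat5b. Of all 9815 transcripts, from 149 (ZnO-UVR against Control-UVR) to 1926 (groups with organic filters against those without) had such a p in a comparison. The comparisons share groups, so the counts are not independent. The test was limma across all 9815 transcripts, with group and replicate number as terms, and calls were made at an adjusted p (Benjamini-Hochberg) under 0.1.

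**Figure D1:**
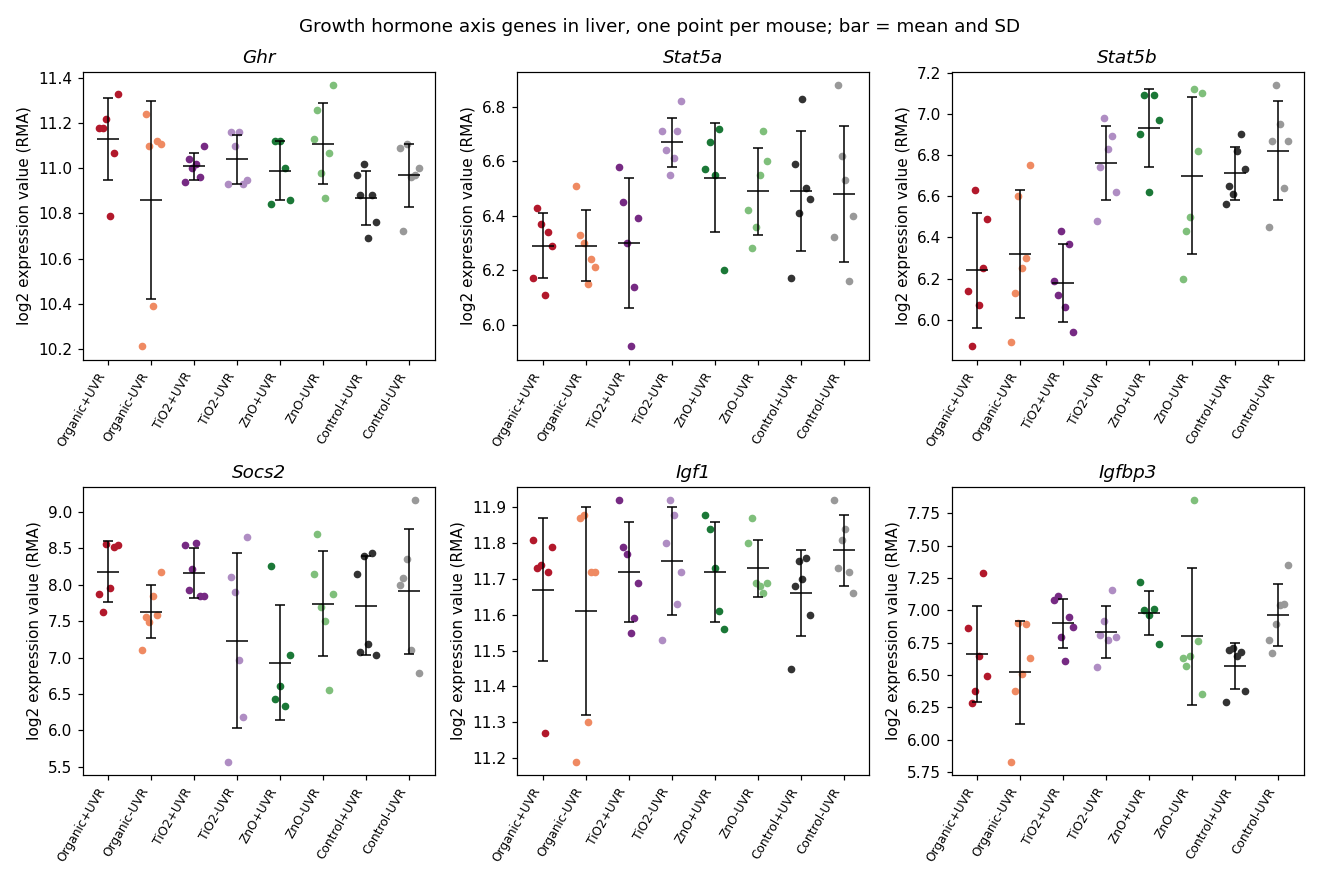
Log2 expression values of the 6 measured members (1 panel each, with its own vertical scale), 1 point per mouse, in the 8 groups along the horizontal axis, with bars for the mean and SD. Stat5b in TiO2+UVR lies between 5.94 and 6.43, below every Control-UVR mouse (6.45 to 7.14), while Ghr and Igf1 stay within narrow ranges apart from low mice in the Organic groups.

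Stat5b, the main liver STAT5 gene, ranged over 5.94 to 6.43 in TiO2+UVR (median 6.16), 5.87 to 6.63 in Organic+UVR (median 6.19) and 5.89 to 6.75 in Organic-UVR (median 6.27), against 6.45 to 7.14 in Control-UVR (median 6.87). Every TiO2+UVR array lay below every Control-UVR array, while both Organic groups overlapped Control-UVR. Among all transcripts, 0.56% had every TiO2+UVR array below every Control-UVR array.

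Stat5b in TiO2+UVR differed from Control-UVR by −0.63 on the log2 scale (SE 0.132, 95% interval −0.90 to −0.37), a 1.55-fold lower level, with limma's adjusted p = 0.0127. It was 1 of 6 measured members called, and 0.693% of all transcripts were called in either direction and 0.52% as lower. Organic+UVR differed from Control-UVR by −0.58 (SE 0.132, adjusted p = 0.0366 in limma), with 1 of 6 members and 1.65% of all transcripts called (1.4% as lower).
Organic-UVR differed from Control-UVR by −0.50 (SE 0.132, adjusted p = 0.0443 in limma), with 1 of 6 members and 3.27% of all transcripts called (2.53% as lower). These comparisons share the 6 Control-UVR arrays. The Organic-UVR call was lost without Organic-UVR replicate 1 (−0.45, adjusted p = 0.186), without Control-UVR replicate 2 (adjusted p = 0.112) and without Control-UVR replicate 3 (adjusted p = 0.101). It was also lost without the replicate term (adjusted p = 0.102), with the array slope as a covariate (0.202) and when the compared groups were fitted alone (0.303). The Organic+UVR call was lost without Control-UVR replicate 4 (adjusted p = 0.119) or 6 (0.122), or without Organic+UVR replicate 2 (0.102) or 4 (0.228), and also after quantile normalisation (0.147), with the array slope as a covariate (0.125) and on the compared groups alone (0.12).

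In the remaining groups Stat5b was not called against Control-UVR. Its values ran from 6.48 to 6.98 in TiO2-UVR (median 6.78), from 6.20 to 7.12 in ZnO-UVR (median 6.66) and from 6.56 to 6.90 in Control+UVR (median 6.69). The ZnO+UVR mice had 6.90, 7.09, 6.62, 7.09 and 6.97. All of these groups overlapped Control-UVR, and in ZnO-UVR the lowest mouse, at 6.20, lay within the range of the TiO2+UVR group.

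Ordered by mean, Stat5b was highest in ZnO+UVR (6.93 ± 0.19, SD, n = 5), followed by Control-UVR (6.82 ± 0.24), TiO2-UVR (6.76 ± 0.18), Control+UVR (6.71 ± 0.13), ZnO-UVR (6.70 ± 0.38), Organic-UVR (6.32 ± 0.31), Organic+UVR (6.24 ± 0.28) and TiO2+UVR (6.18 ± 0.19), with n = 6 in each of these. Every pair of neighbours in this order overlapped. The widest step, of 0.38, lay between ZnO-UVR and Organic-UVR and was no larger than the SD within ZnO-UVR.

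Within the TiO2 sunscreen, Stat5b was lower with UVR than without it. The 6 TiO2+UVR arrays (5.94 to 6.43) did not overlap the 6 TiO2-UVR arrays (6.48 to 6.98), an arrangement found in this direction in 0.357% of all transcripts. The difference was −0.57 (SE 0.132, adjusted p = 0.0272 in limma), and 1 of 6 members and 0.652% of all transcripts were called (0.418% as lower and 0.234% as higher). This call was lost when TiO2+UVR replicate 4 (adjusted p = 0.11) or 6 (adjusted p = 0.191) was left out.
Against Control+UVR (6.56 to 6.90) the TiO2+UVR arrays were again all lower, as in 0.224% of transcripts, with a difference of −0.53 (adjusted p = 0.061 in limma) and 1 of 6 members and 0.703% of all transcripts called (0.265% as lower and 0.438% as higher). That call was lost without any 1 of Control+UVR replicates 1, 4 and 5 or TiO2+UVR replicates 4 and 6 (adjusted p from 0.127 to 0.22), and also without the replicate term (0.138), with array weights (0.15) and on the compared groups alone (0.186). Organic+UVR differed from Control+UVR by −0.47 and was not called (adjusted p = 0.206, with 0.0611% of all transcripts called). The interaction of TiO2 sunscreen and UVR, which tests whether UVR moved Stat5b differently with this sunscreen than with none, was −0.46 (SE 0.187) and not called (adjusted p = 0.453 in limma, 0.173% of all transcripts called, 0.0917% as higher).

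**Figure D2:**
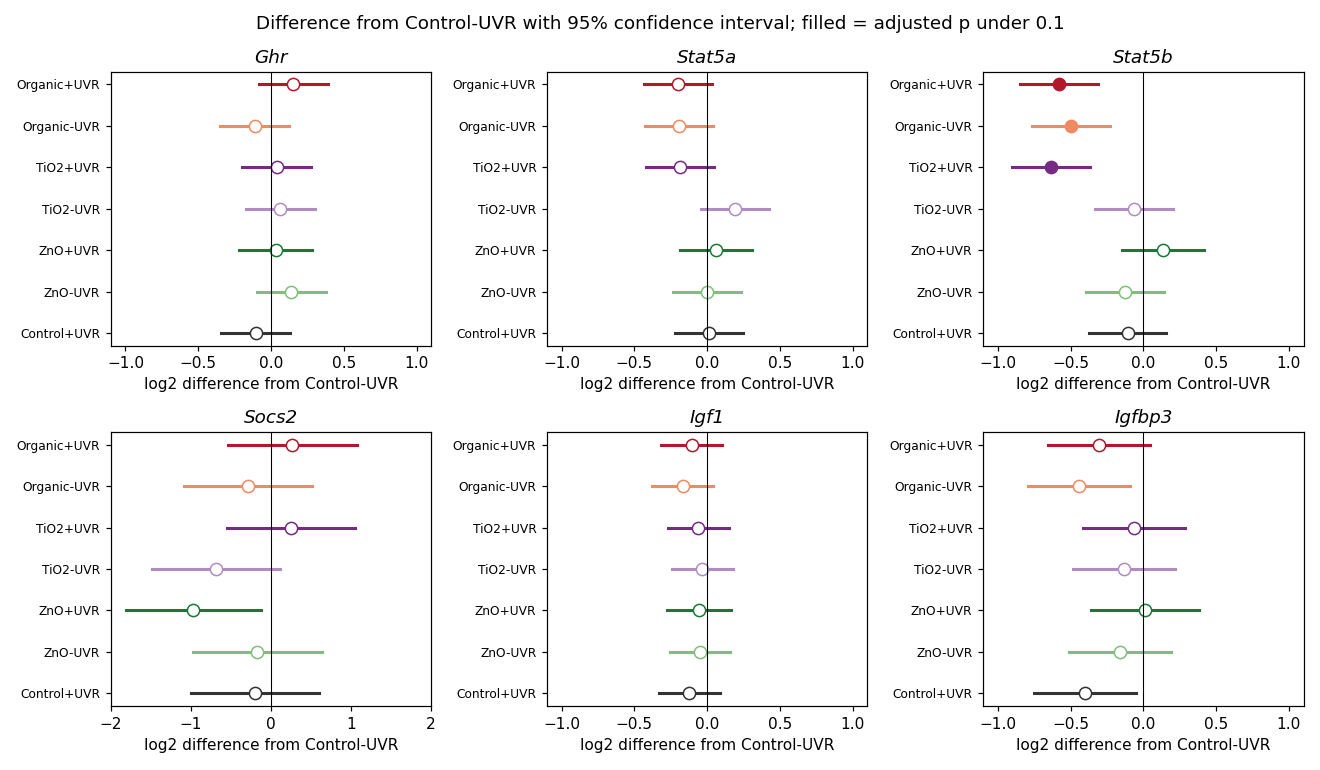
Log2 differences of the 7 other groups from Control-UVR for each measured member, with lines for the 95% intervals and filled points where the adjusted p was under 0.1. Only Stat5b has filled points, in Organic+UVR (−0.58), Organic-UVR (−0.50) and TiO2+UVR (−0.63), and the Socs2 panel has a wider axis than the others.

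Pooled over the groups whose sunscreens hold organic filters (Organic and TiO2, with and without UVR), Stat5b averaged 6.38 against 6.79 in the groups without them (Control and ZnO). The difference was −0.42 (SE 0.067, 95% interval −0.55 to −0.28, adjusted p = 0.000153 in limma), and 1 of 6 members and 4.94% of all transcripts were called (3.4% as lower and 1.54% as higher). TiO2-UVR was pooled on the lower side although its own mean was 6.76. Pooled over sunscreens, the groups with UVR averaged 6.52 and those without 6.65 (difference −0.12, adjusted p = 0.74). In this UVR comparison 0 members and 0% of all transcripts were called, against 667 transcripts with an unadjusted p under 0.05, none of them a member.

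Stat5a, the paralog of Stat5b, was measured in the same livers. Its values ran from 5.92 to 6.58 in TiO2+UVR (median 6.34), 6.11 to 6.43 in Organic+UVR (median 6.32) and 6.15 to 6.51 in Organic-UVR (median 6.27), against 6.16 to 6.88 in Control-UVR (median 6.47). All of these ranges overlapped. The differences from Control-UVR were −0.19, −0.20 and −0.20 in the order given, with adjusted p from 0.338 to 0.607.

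Against TiO2-UVR (6.55 to 6.82), Stat5a in TiO2+UVR differed by −0.38 (SE 0.116, adjusted p = 0.221 in limma). The groups overlapped by a single TiO2+UVR array, at 6.58. Without TiO2+UVR replicate 1, the array at 6.58, the difference was −0.44 and was called (adjusted p = 0.0805).

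To ask whether Stat5b differed more than Stat5a, the log2 ratio of Stat5b to Stat5a was taken in each mouse. It was compared by an exact two-sided permutation test in 4 comparisons, which were chosen after the Stat5b values were seen. Replicate number was not used in this test, unlike in the limma fit. The ratio averaged −0.11 ± 0.31 in TiO2+UVR, −0.04 ± 0.29 in Organic+UVR and 0.03 ± 0.40 in Organic-UVR, against 0.33 ± 0.22 in Control-UVR (SD, n = 6 each). The differences from Control-UVR were −0.45 in TiO2+UVR (exact p = 0.0173, 0.0563 adjusted over the 4), −0.38 in Organic+UVR (exact p = 0.0281, 0.0563 adjusted) and −0.30 in Organic-UVR (exact p = 0.132, 0.176 adjusted). Between TiO2+UVR (−0.11 ± 0.31) and TiO2-UVR (0.08 ± 0.25) it differed by −0.19 (exact p = 0.238, also 0.238 adjusted).

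Across all 47 mice, the level of Stat5b varied with that of clock genes, which were taken from a list of 20 of which 10 were measured. Npas2, a transcription factor of the positive arm of the clock, ran from 3.86 to 4.46 in TiO2+UVR, 3.79 to 4.82 in Organic+UVR and 3.79 to 4.63 in Organic-UVR, against 4.12 to 6.71 in Control-UVR. It was therefore low in every mouse of the groups in which Stat5b was lower, and it was also low in some mice of other groups. The mice with the lowest Npas2 in Control-UVR (replicates 1 and 5, at 4.12 and 4.20) had the lowest Stat5b of that group (6.45 and 6.64), and those with the lowest Npas2 in ZnO-UVR (replicates 1 and 2, at 4.39 and 4.02) had the lowest Stat5b there (6.20 and 6.43). TiO2-UVR went the other way: its only mouse with Npas2 under 5 (replicate 2, at 4.63) had Stat5b at 6.74, above replicates 1 (6.48) and 6 (6.62), whose Npas2 was 6.22 and 6.12.

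Pearson's r of Stat5b with Npas2 was 0.795 over 47 arrays, 0.757 over the 23 arrays of the groups without organic filters, and 0.43 after group and replicate means were removed. The mice lie in a low and a high range of Npas2, and within these r was 0.243 over the 23 arrays with Npas2 from 3.79 to 4.82 and 0.509 over the 24 arrays from 5.11 to 7.30. The whole low range lies under a log2 value of 5, the cut used here for dim transcripts, so the order of mice within it is uncertain. With Nfil3, a repressor of D-box genes, r was 0.751, and 0.396 after group and replicate means were removed. With Per1, a repressor of the clock's positive arm, it was −0.68, and −0.264 after that step. Other clock genes lost more of their r: Tef went from −0.662 to −0.125 and Nr1d2 from −0.594 to −0.108. Nr1d1 had the weakest r of the measured clock genes over the 47 arrays (−0.132). The arrays share treatment groups and RMA normalisation, so these values describe the set and no p was computed.
Each comparison that called Stat5b also called clock genes, with the fewest, 2 of 10, in Organic+UVR against Control-UVR. The most, 8 of 10, were called in the groups with organic filters against those without, beside 4.94% of all transcripts. Of these, 2 were lower (Npas2, −1.27, and Nfil3, −0.77) and 6 higher, with a list median of 0.35 against 0.02 over all transcripts. Clock genes were also called where Stat5b was not: 1 in Organic+UVR against Control+UVR and 2 in the interaction of TiO2 sunscreen and UVR. In ZnO+UVR against ZnO-UVR 8 of 10 had an unadjusted p under 0.05 (list median −0.464) and 0 were called. Stat5b differed by 0.26 there and was not called. In TiO2+UVR against TiO2-UVR, where Stat5b was lower, the repressor gene Nr1d2 was higher by 1.72 (adjusted p = 0.000276 in limma). When the Npas2 level was added to the fit as a covariate, a choice made after the data were seen, Stat5b in TiO2+UVR differed from Control-UVR by −0.43 (adjusted p = 0.94) and no comparison of Stat5b was called. Every mouse of TiO2+UVR and both Organic groups lay in the low range of Npas2, and of Control-UVR only replicates 1 and 5. This fit therefore has few Control-UVR mice at the Npas2 level of the groups in which Stat5b was lower. The hour at which livers were taken is not given in the sources used here, and its part in the Stat5b differences was not tested.

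**Figure D3:**
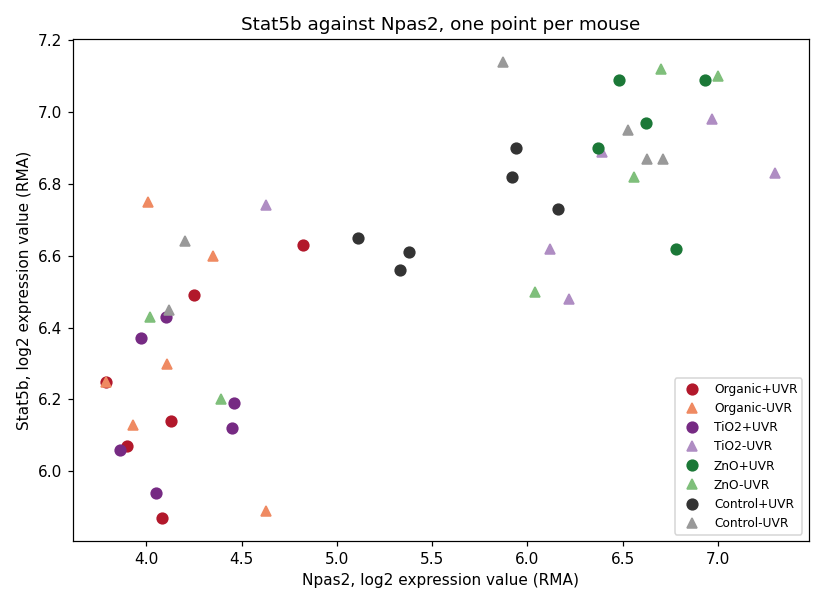
Log2 level of Stat5b (vertical axis) against that of Npas2 (horizontal axis), 1 point per mouse, circles for groups with UVR and triangles for those without. The points fall into a low and a high range of Npas2 (r = 0.243 and 0.509 within them, 0.795 over 47 arrays), and the mice with Npas2 under 5 have the lowest Stat5b of their group in Control-UVR and ZnO-UVR but not in TiO2-UVR (Npas2 4.63, Stat5b 6.74).

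Socs2, the STAT5 target whose product dampens growth hormone signalling, varied most among mice of the same group. Its SD within groups was 0.72, larger than that of 99.5% of all transcripts, against a median of 0.27 over all transcripts. In TiO2-UVR the mice ran from 5.57 to 8.65, and in Control-UVR from 6.79 to 9.16.

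Socs2 was called in 0 of the comparisons. TiO2+UVR mice had values from 7.84 to 8.57 (median 8.07), against 5.57 to 8.65 in TiO2-UVR (median 7.43). The TiO2+UVR mice lay inside the TiO2-UVR range, and the difference was 0.93 (SE 0.397, adjusted p = 0.599 in limma). It was 0.55 without TiO2-UVR replicate 1, 1.25 without TiO2-UVR replicate 6, 0.49 with array weights and −0.13 with Npas2 as a covariate.
The ZnO+UVR mice had 8.26, 6.43, 6.61, 6.34 and 7.03, against 6.79 to 9.16 in Control-UVR (median 8.04). Of these, 3 lay below every Control-UVR mouse, and the difference was −0.97 (SE 0.419, adjusted p = 1, with 0% of all transcripts called in that comparison).

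The probesets of Socs2 followed each other over the mice (r = 0.855, 47 arrays), with the second less spread (SD within groups 0.42). On the second, TiO2+UVR differed from TiO2-UVR by 0.53 (adjusted p = 0.605), and ZnO+UVR had values from 5.78 to 6.79, against 5.48 to 6.93 in Control-UVR, so that all 5 ZnO+UVR mice lay inside the Control-UVR range. The probesets also differ in their place in the array's numbering. Of the 20 transcripts numbered nearest to the brighter probeset, 17 lie on chromosome 12, while 19 of the 20 nearest to the second lie on chromosome 10. Socs2 lies on chromosome 10, and what else the brighter probeset reads was not tested.

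Ghr, the growth hormone receptor gene, ranged over 10.21 to 11.37 across all mice, with an SD within groups of 0.20. Its values in Organic+UVR were 10.79 to 11.33 (median 11.18) and in Organic-UVR 10.21 to 11.24 (median 11.11), against 10.72 to 11.11 in Control-UVR (median 10.99). Replicates 1 and 4 of Organic-UVR, at 10.21 and 10.39, were the lowest of all mice, while the other 4 of that group lay between 11.10 and 11.24. The 7 differences from Control-UVR ran from −0.11 (Organic-UVR) to 0.15 (Organic+UVR), with 95% intervals that lay within −0.35 to 0.39, and none was called (adjusted p from 0.493 to 1).
Organic+UVR differed from Organic-UVR by 0.27 (SE 0.117, adjusted p = 0.998, 0% of all transcripts called). The interaction of Organic sunscreen and UVR was 0.37 (adjusted p = 0.657). Without Organic-UVR replicate 1 the difference was 0.14 and without replicate 4 it was 0.19, and the interaction was 0.24 and 0.29.

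Igf1, the secreted growth factor that growth hormone drives in liver, varied little among mice of a group. Its SD within groups was 0.17, with 2.99% of all transcripts below it. Its medians lay between 11.69 (Control+UVR and ZnO-UVR) and 11.77 (Control-UVR), and all 8 groups overlapped. The differences from Control-UVR ran from −0.17 (Organic-UVR) to −0.03 (TiO2-UVR), with 95% intervals that lay within −0.38 to 0.17, and the test for any difference among groups gave F = 0.54 (adjusted p = 0.921 in limma). In the groups where Stat5b was called lower, Igf1 differed from Control-UVR by −0.06 in TiO2+UVR, −0.11 in Organic+UVR and −0.17 in Organic-UVR (adjusted p from 0.357 to 0.888).
The lowest Igf1 values were 11.19 and 11.30 in Organic-UVR replicates 1 and 4 and 11.27 in Organic+UVR replicate 4. The Organic-UVR mice are those with the lowest Ghr, and Organic+UVR replicate 4 had the lowest Ghr of its group (10.79).

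Ghr and Igf1 were the pair of members whose levels followed each other most closely, apart from the probesets of Socs2 (r = 0.663 over 47 arrays, and 0.669 after group and replicate means were removed). Without the arrays farthest from the median in Ghr r was 0.41 over 45 arrays, and without Organic-UVR replicate 1 it was 0.546 over 46. Without Organic-UVR replicates 1 and 4 and Organic+UVR replicate 4 it was 0.343 over 44, so the relation rests in part on these mice. Organic-UVR replicate 1 stands apart from the other arrays. The slope of its values on the mean of all arrays was 0.772, against 0.895 to 1.07 for the other 46, which means that its bright transcripts read lower and its dim ones higher. Over the 47 arrays this slope had r = 0.611 with Igf1, 0.526 with Ghr, 0.603 with Igfbp3, 0.514 with Stat5b and 0.056 with Socs2. Without Organic-UVR replicate 1 these were 0.447, 0.241, 0.476, 0.455 and −0.03.

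Igfbp3, the main carrier of IGF1 in blood, is made in liver mostly by cells other than hepatocytes. In Control+UVR it ran from 6.29 to 6.71 (median 6.66), against 6.67 to 7.35 in Control-UVR (median 6.97). The groups overlapped only between 6.67 and 6.71. The difference was −0.40 (SE 0.173, adjusted p = 0.325 in limma) and was not called, with 0.0509% of all transcripts called.
In Organic-UVR it ran from 5.83 to 6.90 (median 6.57), a difference of −0.44 from Control-UVR (adjusted p = 0.165). Without Organic-UVR replicate 3, at 6.90, it was −0.53 and was called (adjusted p = 0.096).

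The ZnO+UVR mice had Igfbp3 at 7.22, 7.00, 6.96, 7.01 and 6.74, against 6.29 to 6.71 in Control+UVR. The groups did not overlap, as for 0.326% of all transcripts in this direction. The difference was 0.41 (SE 0.183) and was not called (adjusted p = 0.815, 0% of all transcripts called). The interactions of UVR with the ZnO sunscreen (0.57, adjusted p = 0.985) and with the Organic sunscreen (0.54, adjusted p = 0.658) had unadjusted p under 0.05 and were not called either.

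Igfbp3 varied with matrix genes and with the marker sums of several cell types other than hepatocytes. The genes most like it over 47 arrays were Col14a1 (r = 0.805), Tgfbi (0.761) and Sparc (0.761), which encode a fibril-associated collagen and matrix proteins. The summed level of 5 measured stellate markers, of 9 listed (Col1a1, Col3a1, Dcn, Des and Lum), had r = 0.632 with Igfbp3, and 0.523 without Organic-UVR replicate 1. The sum of 4 endothelial markers had r = 0.569 (0.508 without that array) and that of 3 Kupffer markers 0.501 (0.498), against 0.287 (0.0177) for 4 hepatocyte markers. Over the 23 arrays without organic filters r was 0.578 for the endothelial, 0.533 for the Kupffer and 0.505 for the stellate sum. The stellate sum ran from 10.30 to 10.75 in Control+UVR (median 10.49), against 10.60 to 10.95 in Control-UVR (median 10.88), and from 9.60 to 10.88 in Organic-UVR (median 10.69). The endothelial sum ran from 8.05 to 8.49 in Control+UVR (median 8.16), against 8.39 to 8.71 in Control-UVR (median 8.50). In that comparison Igfbp3 was −0.40, and the 4 measured endothelial markers had a median difference of −0.303, with 0 called. Of these, named after their values were seen, Fcgr2b was −0.52 (adjusted p = 0.22 in limma) and Pecam1 −0.43 (adjusted p = 0.308). In Organic-UVR, where Igfbp3 was −0.44, the endothelial sum ran from 7.92 to 8.59 (median 8.52), a median no lower than in Control-UVR. In bulk liver, fewer cells of a type and less RNA per cell cannot be told apart, and the part of these cell types in the Igfbp3 values was not tested.

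**Figure D4:**
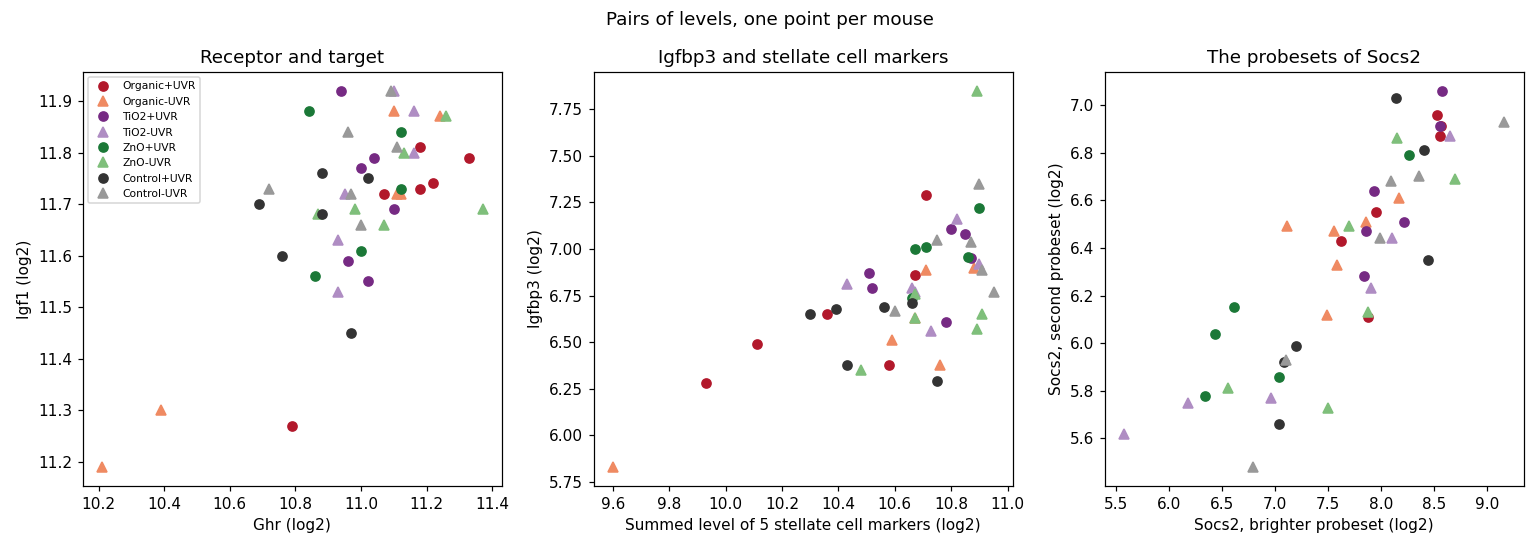
Pairs of log2 levels, 1 point per mouse and circles for groups with UVR: Igf1 against Ghr, Igfbp3 against the summed level of 5 stellate cell markers, and the second Socs2 probeset against the brighter one. The r values over 47 arrays are 0.663, 0.632 and 0.855, and Organic-UVR replicate 1 is the lowest point at the left in the first and middle panels.

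For each member the genes of most similar pattern were taken by Pearson's r over the 47 arrays, as a description. For Stat5b they were Asap2 (0.888, and 0.708 after group and replicate means were removed), Insig2 (0.866, and 0.618) and Ypel2 (0.862, and 0.669). For Stat5a they were Rfx4 (0.734), Ndrg1 (0.698) and Slc30a10 (0.687). For Socs2 they were Rdh9 (0.629), Gch1 (0.612) and the clock gene Nr1d2 (0.595). For Ghr they were Rabgap1l (0.861), Agmo (0.856) and Abca6 (0.827), and for Igf1 Med1 (0.88), Zscan26 (0.844) and R3hdm2 (0.832).

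Other genes of the pathway were counted from lists. Of 25 genes of growth hormone receptor signalling 5 were measured and 0 were called in any comparison, of 19 inhibitors of the pathway 4 were measured and 0 called, and of 12 pituitary hormones and their regulators 5 were measured and 0 called. At an unadjusted p under 0.05 these lists had at most 2, 1 and 4 genes in any of the comparisons. The 4 were of the 5 measured pituitary genes, in Organic-UVR against Control-UVR, where 1870 of all 9815 transcripts had such a p. The pituitary genes named below, Sstr1 and Prl, were dim (mean log2 values 3.93 and 3.48). Dim transcripts read higher in Organic-UVR replicate 1, and the part of that array in this count was not tested. Of 27 liver genes known to be higher in male mice under growth hormone control, 6 were measured and 0 called, with at most 1 at an unadjusted p under 0.05. The smallest p in the test for any difference belonged in these lists to the signalling genes Pik3r1 (adjusted p = 0.511) and Irs1 (0.672), the inhibitor list's Socs7 (0.465) and Sirt1 (0.576), the pituitary list's Sstr1 (0.511) and Prl (0.574), and the male-biased Susd4 (0.702) and Moxd1 (0.793). Of 21 genes for IGF ligands, receptors and binding proteins, 9 were measured. Igfbp1, an IGF carrier that responds to fasting and insulin, was called in the test for any difference among the 8 groups (F = 4.69, adjusted p = 0.0473 in limma, 1.93% of all transcripts called, Stat5b the only member with F = 9.33 and adjusted p = 0.000289) but in 0 of the 18 comparisons, and Pappa2, a protease of IGF carriers, was next in that list (adjusted p = 0.433, not called).

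Of 30 liver genes known to be higher in female mice under growth hormone control, 6 were measured. In TiO2+UVR against Control+UVR, 3 of the 6 were called higher and 0 lower, where 0.438% of all transcripts were called as higher. The list median was 0.58 against 0.01 over all transcripts. Those called were Fmo2, a flavin monooxygenase (1.45, adjusted p = 0.0119 in limma), Acot3, a peroxisomal thioesterase (1.45, adjusted p = 0.0231), and Abcd2, a peroxisomal fatty acid transporter (0.88, adjusted p = 0.0148). In the same comparison Stat5b was lower (−0.53). A1bg, of the same list and named after its values were seen, differed by −0.42 there (adjusted p = 0.837) and by −0.82 in TiO2+UVR against TiO2-UVR (adjusted p = 0.599), and was called in the test for any difference among the 8 groups (adjusted p = 0.0943). Abcd2 fell in Control+UVR against Control-UVR (−0.85, adjusted p = 0.0789), where Stat5b was not called. The interaction of TiO2 sunscreen and UVR was called for Abcd2 (1.43, adjusted p = 0.0123) and Fmo2 (1.75, adjusted p = 0.0954), and Acot3 rose in the groups with organic filters (0.54, adjusted p = 0.07). In TiO2+UVR and the Organic groups against Control-UVR, 0 of the 6 were called. The list median was 0.015 in TiO2+UVR against Control-UVR and −0.427 in Control+UVR against Control-UVR. In Organic+UVR against Control+UVR it was 0.498, with 3 of the 6 at an unadjusted p under 0.05 and 0 called.

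Markers of liver cell types were read beside these results. The summed level of 4 hepatocyte markers, of 11 listed, had group medians between 14.61 and 14.69, with the lowest array at 14.24 in Organic-UVR. Of the 4 measured endothelial markers Pecam1 was lower in Organic+UVR than in Control-UVR (−0.66, adjusted p = 0.072) and in the groups with organic filters than in those without (−0.28, adjusted p = 0.0831). No other endothelial marker was called in these comparisons. The median over the 4 was −0.284 and −0.062 in that order, against 0.032 and 0.023 over all transcripts. Of the 3 measured bile duct markers Krt7, a dim transcript (mean log2 value 4.65), was higher than in Control-UVR in Organic-UVR (0.56, adjusted p = 0.00641) and Organic+UVR (0.37, adjusted p = 0.095). In the same order Krt19 differed by 0.139 and −0.103 and Sox9 by −0.272 and −0.235, with none called. Organic-UVR replicate 1 read dim transcripts higher, and its part in the Krt7 value was not tested. Stat5b was called lower in each of these comparisons of Pecam1 and Krt7. Sox9, also of the bile duct list, was lower in the groups with organic filters (−0.24, adjusted p = 0.0834). No measured hepatocyte, Kupffer, stellate or blood marker was called, and those with the smallest p in the test for any difference were Ahsg and Apob (adjusted p = 0.948 and 0.949), Timd4 and Cd68 (0.852 and 0.854), Lum and Dcn (0.347 and 0.465), and Ptprc and Slc4a1 (0.723 and 0.857). The part of these markers in the Stat5b differences was not tested.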

How the data were processed

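Liver RNA was hybridised to Affymetrix Mouse Gene 1.0 ST arrays, 1 mouse per array. The authors normalised the arrays by RMA, which the submitters' processing notes also name, and deposited log2 values. The methods describe batches with 1 chip of each group and a removal of batch effects, and leave unstated if that step was applied to the deposited values and if replicate numbers are batches. The table holds 16383 probesets; 6568 control probesets were left out and 9815 transcripts tested, a part of those on the array. Of 7450 transcripts with 1 symbol, 7421 were matched by Entrez number, and 511 have several symbols.

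Group and replicate number were fitted in limma 3.58.1 (R 4.3.3) over 47 arrays (34 residual degrees of freedom), with Benjamini-Hochberg adjustment over all transcripts and calls under 0.1, the methods' false discovery rate of 10%. The fit was tested on simulated data. Same-numbered arrays of different groups had residual correlations from −0.51 to 0.746 (mean 0.153, 103 of 161 above 0.1), against a mean of −0.03 and 222 of 805 above 0.1 for different numbers. Same-numbered arrays were thus more alike, though not in every pair, and the replicate term was kept because of the batches described. The p-values set group differences against the spread between mice of a group. With 1 cage per group in the methods, they do not cover differences between cages. The number of arrays also limits precision.

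The members, the gene lists and the rule for named genes were chosen with earlier results of these data known. Named were all members, the 3 genes of closest pattern to each, and of each list the called genes with the smallest p, at most 3, or, with 0 calls, the 2 with the smallest p in the test for any difference among groups. The listed clock gene values beside the members were chosen after values were seen.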

Additional observations from a re-analysis of the deposited data

Results flagged for a closer look

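In 56 sets of a probeset and a group of 5 or 6 mice, both Socs2 probesets included, the highest or lowest mouse was compared with the rest by Dixon's ratio. The cut was passed by 2 mice, and chance passes it in about 1 in 20 sets. A count of 2 in 56 is not above that share. Igf1 in Organic+UVR replicate 4 was 11.27, with the next mouse at 11.72. Igfbp3 in ZnO-UVR replicate 4 was 7.85, with the next mouse at 6.76. The array slope was 0.895 for the first mouse, the lowest of its group, and 1.062 for the second, the highest of its group.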

How the results depend on the processing

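Stat5b kept its lower level in TiO2+UVR against Control-UVR, in the groups with organic filters, and in the test for any difference when each of the 47 arrays was left out in turn (1 member called every time). Counts of members called that changed were as follows. Without the replicate block, Organic-UVR against Control-UVR had 0 called (Stat5b adjusted p = 0.102) and TiO2+UVR against Control+UVR 0 (0.138); the block changed no other call. With the array slope as a covariate, Organic-UVR (0.202) and Organic+UVR (0.125) against Control-UVR had 0, Organic+UVR against Control+UVR had 1 (0.0781) and TiO2+UVR against TiO2-UVR had 2, with Stat5a at −0.38 (0.0976). Fitted on the compared groups alone, Organic-UVR (0.303) and Organic+UVR (0.12) against Control-UVR and TiO2+UVR against Control+UVR (0.186) had 0. Quantile normalisation left 0 in Organic+UVR against Control-UVR (0.147). Array weights left 0 in TiO2+UVR against Control+UVR (0.15) and gave 2 in the test for any difference, and a threshold of 0.05 left 0 in TiO2+UVR against Control+UVR. With Npas2 as a covariate, chosen after the data were seen, 0 members were called in each of these comparisons, and Socs2 in TiO2+UVR against TiO2-UVR was −0.13, against 0.93 without it. The cause of these changes was not tested.

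Leaving out 1 array gave 0 to 2 members called in Organic-UVR against Control-UVR, 0 to 1 in Organic+UVR against Control-UVR, 0 to 1 in TiO2+UVR against Control+UVR and 0 to 2 in TiO2+UVR against TiO2-UVR. A filter on dim transcripts and the second Socs2 probeset changed no call. Alternatives for single members were computed only where the unadjusted p was under 0.05, a choice made after values were seen. Genes outside the table were not analysed here.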
